A study of Homo sapiens with 12 samples.

Results

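The ZNF genes carry the ZNF symbol and a number, the name given to human genes for zinc finger proteins. Of the 502 ZNF genes named on the array, 242 were selected on their level, in that their brightest probe set averaged more than 6 on the log2 scale over all 12 arrays. All 242 passed the filter on dim probe sets, a log2 value above 4 on at least 3 arrays. The level alone set this rule, and no difference between groups entered it, although the set was picked for study with earlier results of these data known. The last genes kept were ZNF784 and ZNF879, both at 6.03, and ZNF385A at 6.04, and the first left out were ZNF865 at 6.00, ZNF839 at 5.99 and ZNF284 at 5.99. RefSeq annotated 235 of the 242 as protein-coding, 3 as long noncoding RNAs antisense to or beside a ZNF gene and 4 as transcribed pseudogenes.

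The study exposed HK-2 cells, a line of immortalised epithelial cells from the proximal tubule of human kidney, to a compound labelled Nnm in search of expression signatures of kidney toxicity. The labels give the dose as low and do not say what Nnm stands for. The 4 groups were Nnm for 24 h, vehicle control for 24 h, Nnm for 48 h and vehicle control for 48 h, with 3 numbered biological replicates and 1 array each. All cells, treated and control, grew in the same mixture of DMEM and Ham's F12 with EGF, hydrocortisone, insulin, transferrin and selenite, were plated 24 h before treatment and were treated when nearly confluent. The labels do not say what separated the replicates, so the p-values measure the spread between these cultures. Arrays of the same replicate number deviated together, and the main fit does not take this into account. Its p-values therefore also carry shifts that a replicate number shares. Unless another setting is named, p-values and results with arrays left out come from fits without a block.

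Most ZNF proteins bind DNA through tandem fingers of the C2H2 type, in which paired cysteines and histidines hold a zinc ion. Many of them also carry a KRAB domain, which recruits the corepressor TRIM28 (KAP1) and, through it, the histone methyltransferase SETDB1, HP1 proteins and the NuRD deacetylase complex, and many KRAB proteins bind and silence transposable elements. The genes arose by repeated duplication and lie in clusters, many of them on chromosome 19, so that neighbours often resemble each other in sequence.

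The promoters of the genes whose results are given in most detail are shown here, taken from RefSeq (GRCh38.p14), each from 250 bases before to 50 bases after the annotated start. Of the 242 genes, 206 had a promoter in this table, and 48 of these had several starts, of which the first listed was used. Capitals mark matches on either strand to CCAAT, the CCAAT box bound by NF-Y (ATTGG on the other strand), CCGGAAG, a site of ETS factors (CTTCCGG on the other strand), GGGCGG, the GC box bound by SP factors (CCGCCC on the other strand), TGACTCA, the AP-1 site, and the longer sites of NRF1 and ZNF143. A match says only that these letters are present. The first 5 promoters belong to genes of chromosomes 19 and 7 that share a layout, a pair of CCAAT boxes followed by CTTCCGG, namely ZNF85 (chr19:20923001-20923300, plus strand), ZNF43 (chr19:21836133-21836432, minus strand), ZNF493 (chr19:21396883-21397182, plus strand), ZNF138 (chr7:64794178-64794477, plus strand) and ZNF736 (chr7:64313711-64314010, plus strand).
ZNF85: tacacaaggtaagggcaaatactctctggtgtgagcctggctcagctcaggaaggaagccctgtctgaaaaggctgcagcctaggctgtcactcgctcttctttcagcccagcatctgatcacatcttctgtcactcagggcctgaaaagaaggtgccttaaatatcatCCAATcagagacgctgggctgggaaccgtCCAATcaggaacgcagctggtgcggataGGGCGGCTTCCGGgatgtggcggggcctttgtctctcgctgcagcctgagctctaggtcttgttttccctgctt
ZNF43: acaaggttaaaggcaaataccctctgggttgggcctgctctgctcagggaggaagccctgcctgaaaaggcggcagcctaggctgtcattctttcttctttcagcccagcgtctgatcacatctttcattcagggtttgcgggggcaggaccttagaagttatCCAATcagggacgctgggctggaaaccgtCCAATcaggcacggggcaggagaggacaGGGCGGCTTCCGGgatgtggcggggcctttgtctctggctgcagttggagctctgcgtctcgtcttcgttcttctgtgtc
ZNF493: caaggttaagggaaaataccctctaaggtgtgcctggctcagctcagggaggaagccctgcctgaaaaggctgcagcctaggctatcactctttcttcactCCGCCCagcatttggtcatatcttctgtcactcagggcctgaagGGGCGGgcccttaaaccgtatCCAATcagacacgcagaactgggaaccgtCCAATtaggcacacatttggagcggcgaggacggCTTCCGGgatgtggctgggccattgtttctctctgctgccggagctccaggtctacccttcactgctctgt
ZNF138: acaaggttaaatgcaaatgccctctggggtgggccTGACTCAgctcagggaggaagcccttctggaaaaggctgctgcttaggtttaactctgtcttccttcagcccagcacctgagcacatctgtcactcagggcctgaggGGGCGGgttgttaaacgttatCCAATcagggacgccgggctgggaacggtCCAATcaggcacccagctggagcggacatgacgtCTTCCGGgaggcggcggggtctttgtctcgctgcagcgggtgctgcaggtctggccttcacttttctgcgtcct
ZNF736: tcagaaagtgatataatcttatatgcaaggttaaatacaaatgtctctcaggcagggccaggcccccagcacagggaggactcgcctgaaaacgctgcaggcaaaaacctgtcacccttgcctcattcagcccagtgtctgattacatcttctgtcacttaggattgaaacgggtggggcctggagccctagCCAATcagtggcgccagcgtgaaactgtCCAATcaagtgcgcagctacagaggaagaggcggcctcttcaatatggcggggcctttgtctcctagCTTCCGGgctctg

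The next promoters belong to ZNF331 (chr19:53520764-53521063, plus strand), which had the smallest p of the risen ZNF genes over both times, to ZNF420 (chr19:37078183-37078482, plus strand), which holds the ZNF143 site more than once, and to ZNF784 (chr19:55624517-55624816, minus strand), which fell at 24 h.
ZNF331: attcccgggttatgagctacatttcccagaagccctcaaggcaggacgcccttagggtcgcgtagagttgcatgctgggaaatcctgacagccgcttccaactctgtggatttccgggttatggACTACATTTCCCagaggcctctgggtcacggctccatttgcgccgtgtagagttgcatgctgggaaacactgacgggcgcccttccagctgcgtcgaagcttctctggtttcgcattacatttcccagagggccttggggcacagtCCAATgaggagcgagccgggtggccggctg
ZNF420: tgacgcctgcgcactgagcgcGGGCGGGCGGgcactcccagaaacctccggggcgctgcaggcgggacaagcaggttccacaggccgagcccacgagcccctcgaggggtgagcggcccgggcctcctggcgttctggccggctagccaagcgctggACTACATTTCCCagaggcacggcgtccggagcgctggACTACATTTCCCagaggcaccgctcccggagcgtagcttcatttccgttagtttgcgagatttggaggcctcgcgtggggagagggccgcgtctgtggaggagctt
ZNF784: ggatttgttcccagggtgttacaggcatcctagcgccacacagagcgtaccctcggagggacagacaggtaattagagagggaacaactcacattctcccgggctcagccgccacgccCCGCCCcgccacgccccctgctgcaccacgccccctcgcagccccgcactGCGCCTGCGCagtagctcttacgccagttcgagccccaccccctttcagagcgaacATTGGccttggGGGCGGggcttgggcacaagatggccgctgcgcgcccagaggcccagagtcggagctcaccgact

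The arrays and the cells set limits that apply to all the values below. DPP4 and PAX8 were the only 2 of 11 measured proximal tubule markers with a mean level above 4, and ANPEP, AQP1, CUBN, GGT1, LRP2, MME, SLC22A6, SLC34A1 and SLC5A2 were not above it. All 6 epithelial markers and none of 4 leukocyte markers were above 4. Of 8 fibroblast markers 4 were above 4, namely DCN (11.97), LUM (10.15), COL1A1 (8.19) and ACTA2 (6.58). So were 2 of 4 podocyte markers, PODXL and SYNPO, and 1 of 5 endothelial markers, PECAM1 (4.26). The summed level of the proximal tubule markers on the linear scale was 6495 to 7779 on Nnm arrays against 3945 to 4853 on control arrays at 24 h, and 9888 to 11389 against 5211 to 5725 at 48 h. That of the 6 distal nephron markers was 948 to 983 on Nnm arrays against 491 to 586 on control arrays at 24 h, and 1010.4 to 1442 against 734 to 867 at 48 h, with AQP2, CALB1 and SLC12A3 not above 4. The proximal tubule sum is mostly DPP4 and PAX8. Podocyte sums were higher on all Nnm arrays at 24 h alone (172 to 317 against 139 to 171). Fibroblast sums were so at 48 h alone (5462 to 6130 against 4774 to 5169). Epithelial sums overlapped at both times, with median log2 changes of the markers of -0.38 and -0.24. The part of these shifts in the ZNF results was not tested. The 4 arrays of replicate 2 stood apart, with a 5′ minus 3′ difference of ACTB probe sets of -1.17 to -1.09 against -0.86 to -0.74 on the other arrays, and with smaller changes over all genes, a median absolute log2 change of 0.19 at 24 h and 0.18 at 48 h against 0.31 to 0.37 in replicates 1 and 3. The counts over all 242 ZNF genes and over the gene lists are given with and without the Nnm arrays of replicate 2.

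The ZNF genes lay in the lower to middle range of the array. Their mean levels ran from 6.03 to 12.09 with a median of 7.58, against a median of 8.42 for the 10907 genes tested. ZNF207, which encodes the spindle protein BuGZ that loads the checkpoint protein BUB3 in mitosis, was the brightest at 12.09, and its values were 11.79, 12.17 and 12.09 in Nnm and 11.99, 12.23 and 12.34 in control cells at 24 h, with overlapping groups. The next brightest were ZNF664 (11.75), ZNF146 (11.44), ZNF706 (11.11), ZNF770 (10.93) and ZNF639 (10.73). Of these 6 only ZNF146, a protein made almost wholly of fingers, passed the test at either time, with a log2 change of 0.36 ± 0.10 (SE) at 48 h and a p adjusted over all genes (limma) of 0.0406, a call that was lost with median centring and without 8 of the 12 arrays in turn, up to an adjusted p of 0.134. ZNF770 had a log2 change of 0.49 at 24 h with an adjusted p of 0.119, and of 0.00492 in the fit blocked by replicate number.

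At 24 h the ZNF genes were shifted towards higher values in Nnm cells. Of the 242 genes, 55 rose and 2 fell at a limma p adjusted over all genes of under 0.05, which is 22.7% and 0.826%, while 10.6% of all genes tested rose and 8.85% fell. The median log2 change was 0.27 for the ZNF genes and 0.01 for all genes, and 179 of the 242 changes were above 0. Each array averaged a whole culture, so more RNA per cell and more cells with the RNA cannot be told apart. Changes of over 2-fold (a log2 change of 1) with a passed test were few, 9 genes, and the median standard error of a change was 0.17 on the log2 scale.

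Among the genes that passed the test, the largest rises at 24 h were those of ZNF250, ZNF318, ZNF138, ZNF641, ZNF85, ZNF44, ZNF736, ZNF718, ZNF420 and ZNF404, with log2 changes of 1.28 to 1.00. ZNF703 (1.50) and ZNF862 (1.09) had changes in or above this range and did not pass. ZNF318, a nuclear protein needed for IgD expression in mouse B cells, had values of 8.65, 8.03 and 8.44 in Nnm cells and 7.32, 7.15 and 6.84 in control cells at 24 h. No Nnm value came near the control values, and the log2 change was 1.27 ± 0.18 (SE, n = 3 each) with a limma adjusted p of 0.00531. At 48 h the values of ZNF318 were 8.30, 7.91 and 8.15 in Nnm cells and 7.68, 7.47 and 7.60 in control cells, a change of 0.53 with an adjusted p of 0.0695, or 0.0163 in the fit blocked by replicate number. The control values of ZNF318 were higher at 48 h than at 24 h, and the Nnm values were lower at 48 h in each replicate. Its other probe set had changes of 0.82 and 0.46.

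ZNF420 (APAK), a KRAB protein known in human cells to bind p53 and hold back its apoptotic targets, had values of 7.68, 7.69 and 7.80 in Nnm cells and 6.68, 6.89 and 6.54 in control cells at 24 h. The 3 Nnm values lay close together and above all control values, giving a log2 change of 1.02 (limma adjusted p = 0.00715). The other probe set of ZNF420 had changes of 0.25 at 24 h and 0.56 at 48 h. ZNF718 had values of 7.96, 8.11 and 8.50 in Nnm cells and 7.29, 7.07 and 7.15 in control cells at 24 h, a change of 1.02 with an adjusted p of 0.00849. ZNF44 rose by 1.17 and ZNF404 by 1.00, with adjusted p-values of 0.00859 and 0.00923, while the other, dim probe set of ZNF44 had a change of 0.19. These 4 genes and ZNF318 passed without any one of the 12 arrays, and ZNF32, ZNF432 and ZNF652 did so too, as well as ZNF114, which fell. The probe sets of ZNF652 disagree. The one used had changes of 0.82 at 24 h and 0.66 at 48 h, and the next brightest, at a mean of 8.02, had -0.34 and -0.55. Its dimmer ones had 0.54 and 0.22, and 0.20 and 0.35.

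ZNF138 had values of 9.07, 8.37 and 9.06 in Nnm cells and 7.58, 7.65 and 7.51 in control cells at 24 h. ZNF85 had values of 9.32, 8.64 and 9.32 in Nnm cells and 7.69, 8.0 and 8.02 in control cells. ZNF250 had values of 8.37, 8.23 and 8.43 in Nnm cells and 7.11, 7.04 and 7.05 in control cells. In each of these genes the replicate 2 array was the lowest of the Nnm arrays and still lay above all controls, with log2 changes of 1.25, 1.19 and 1.28 and limma adjusted p-values of 0.0143, 0.0205 and 0.0156. Their calls depended on the arrays used: ZNF138 and ZNF250 missed the threshold without Nnm replicate 1, Nnm replicate 3 or control replicate 3 of 24 h, at adjusted p-values up to 0.0609 and 0.0629, and ZNF85 also without control replicate 1, up to 0.0782. ZNF641 rose by 1.21 and ZNF736 by 1.07. ZNF641 lost its call without Nnm replicate 1 or 3 or control replicate 1 or 3 of 24 h (up to 0.0959), and ZNF736 without Nnm replicate 1 or 3 or control replicate 1 (up to 0.0642).

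Both ZNF genes that fell at 24 h lie on chromosome 19. ZNF114 had values of 7.13, 7.37 and 6.74 in Nnm cells and 8.03, 8.01 and 8.10 in control cells at 24 h, and 7.26, 7.41 and 7.10 in Nnm cells and 8.27, 8.32 and 8.66 in control cells at 48 h. The groups were apart at both times, with log2 changes of -0.97 ± 0.17 and -1.16 ± 0.17 (SE) and limma adjusted p-values of 0.00752 and 0.00491. The other probe set of ZNF114 had changes of -1.09 and -1.38. ZNF784, the dimmest of the 242, had values of 6.04, 5.96 and 5.43 in Nnm cells and 6.50, 6.20 and 6.35 in control cells at 24 h, a change of -0.54 with an adjusted p of 0.0473. This call was lost without any of the arrays except Nnm replicate 2 of 24 h, at adjusted p-values up to 0.154, and at 48 h the change was -0.42 with an adjusted p of 0.114, or 0.0396 with the replicate block.

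The count at 24 h rested on a few arrays. Leaving out control replicate 3 of 24 h gave 11 genes, leaving out Nnm replicate 3 gave 12, Nnm replicate 1 gave 23 and control replicate 1 gave 25, while the share of all genes called fell to 3.7%, 4.92%, 5.65% and 8.54%. In the fit blocked by replicate number, 93 ZNF genes rose and 14 fell, against 20% and 18.8% of all genes. Without the Nnm arrays of replicate 2, 66 rose and 15 fell, against 18.1% and 15.9% of all genes. The median log2 change of the ZNF genes stayed between 0.21 and 0.28 with any one array left out, and it was 0.27 with quantile normalization and 0.26 with each array centred on its median.

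**Figure D1:**
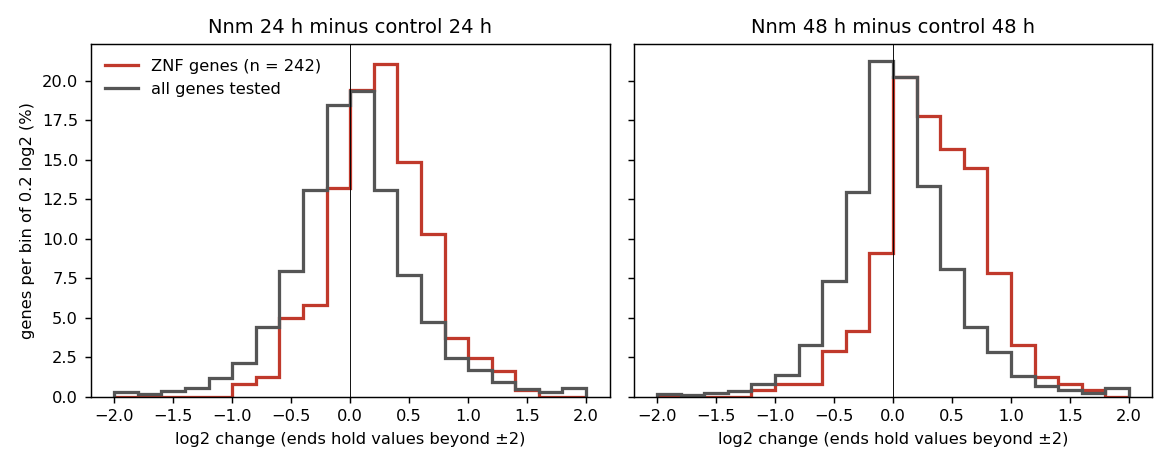
Distribution of the log2 change, Nnm minus control, at 24 h (left) and 48 h (right) for the 242 ZNF genes (red) and the 10907 genes tested (grey), as percent of genes per bin of 0.2. The red outline lies to the right of the grey one in both panels, with medians of 0.27 against 0.01 at 24 h and 0.34 against 0.02 at 48 h.

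At 48 h more ZNF genes passed the test and again nearly all of them upwards. There were 74 that rose and 1 that fell, which is 30.6% and 0.413%, while 8.45% of all genes tested rose and 5.34% fell. The median log2 change was 0.34 for the ZNF genes and 0.02 for all genes, and 198 of the 242 changes were above 0. The single gene that fell was ZNF114. The upper quartile of the changes was 0.65, and 14 genes that passed the test exceeded 2-fold.

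The largest rise at 48 h was that of ZNF738, a gene of the chromosome 19 cluster that also holds ZNF85 and ZNF43. It had values of 8.38, 7.26 and 8.11 in Nnm cells and 6.04, 6.12 and 6.66 in control cells at 48 h, a log2 change of 1.64 ± 0.28 (SE, n = 3 each) with a limma adjusted p of 0.00914. At 24 h its values were 7.63, 7.08 and 7.55 in Nnm cells and 7.23, 6.87 and 7.34 in control cells, with overlapping groups and an adjusted p of 0.522. The control values were lower at 48 h than at 24 h, and each Nnm value was higher at 48 h than at 24 h in the same replicate. ZNF850 had values of 7.43, 7.10 and 7.45 in Nnm cells and 5.88, 6.20 and 6.51 in control cells at 48 h, and 6.77, 7.37 and 7.48 in Nnm cells and 7.14, 6.93 and 7.81 in control cells at 24 h. Its change at 48 h was 1.13 (adjusted p = 0.0205), lost without Nnm replicate 1 or 3 or control replicate 1 or 2 of 48 h (up to 0.0805), and its change at 24 h was -0.08. Each control value of ZNF850 was lower at 48 h than at 24 h, and in Nnm cells only that of replicate 1 was higher.

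ZNF331, a KRAB gene that is imprinted in human tissues, had values of 7.84, 7.52 and 7.93 in Nnm cells and 6.59, 6.31 and 6.31 in control cells at 48 h. At 24 h its values were 7.28, 7.67 and 7.35 in Nnm cells and 6.81, 6.82 and 6.87 in control cells. The groups were apart at both times, with log2 changes of 1.36 ± 0.14 and 0.59 ± 0.14 (SE) and adjusted p-values of 0.00132 and 0.0199. The call at 24 h was lost without Nnm replicate 3 or control replicate 1 or 3 of 24 h (up to 0.0679), and the call at 48 h was kept without any one array. The other probe set of ZNF331 had changes of 0.61 at 48 h and 0.18 at 24 h. ZNF83 had values of 8.42, 7.73 and 8.33 in Nnm cells and 6.54, 6.75 and 6.70 in control cells at 48 h, a change of 1.50 (adjusted p = 0.00286). Its other probe set had a change of 0.10 at 48 h and of -0.0040 at 24 h, so the probe sets of ZNF83 disagree.

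ZNF85 had values of 9.68, 8.41 and 9.27 in Nnm cells and 7.57, 7.85 and 7.67 in control cells at 48 h. ZNF138 had values of 9.57, 8.40 and 9.10 in Nnm cells and 7.61, 7.89 and 7.76 in control cells. ZNF250 had values of 8.99, 7.75 and 9.13 in Nnm cells and 7.46, 7.33 and 7.41 in control cells. As at 24 h, replicate 2 was the lowest Nnm array in each gene and lay above the controls, with log2 changes of 1.42, 1.27 and 1.22 and adjusted p-values of 0.0141, 0.0159 and 0.0215. ZNF93, known for binding and silencing LINE-1 elements, rose by 1.12, ZNF600 by 1.11 and ZNF107 by 1.08. All 6 of these calls were lost without Nnm replicate 1 of 48 h, at adjusted p-values of 0.0556, 0.0602, 0.0904, 0.0708, 0.069 and 0.1, without Nnm replicate 3 of 48 h and without control replicate 1 of 48 h. Those of ZNF85, ZNF138, ZNF250, ZNF600 and ZNF107 were lost without control replicate 3 too, and those of ZNF250 and ZNF107 without control replicate 2, the highest adjusted p of the 6 being 0.114 for ZNF107.

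Some smaller rises were measured with less spread. ZNF766 had values of 9.39, 9.39 and 9.28 in Nnm cells and 8.49, 8.61 and 8.58 in control cells at 48 h, a log2 change of 0.79 with an adjusted p of 0.00286. ZNF415 had values of 8.44, 8.36 and 8.50 in Nnm cells and 7.42, 7.65 and 7.39 in control cells, a change of 0.95 with the same adjusted p. ZNF266 rose by 0.94 (adjusted p = 0.00518). In ZNF766 and ZNF415 the replicate 2 arrays stood with the others, and these 3 genes passed without any one of the 12 arrays. So did 14 others of the 75 at 48 h, among them ZNF331, ZNF83, ZNF738, ZNF432, ZNF718 and ZNF114.

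The count at 48 h rested on single arrays as well. Leaving out Nnm replicate 1 of 48 h gave 20 genes, control replicate 1 gave 24, Nnm replicate 3 gave 27, control replicate 3 gave 29 and control replicate 2 gave 49, while the share of all genes called fell to 2.45%, 3.55%, 3.49%, 3.84% and 8.14%. In the fit blocked by replicate number, 109 ZNF genes rose and 8 fell, against 18.5% and 13.7% of all genes. Without the Nnm arrays of replicate 2, 86 rose and 11 fell, against 16.4% and 12.5% of all genes. The median log2 change stayed between 0.29 and 0.37 with any one array left out and was 0.30 with quantile normalization and with median centring.

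**Figure D2:**
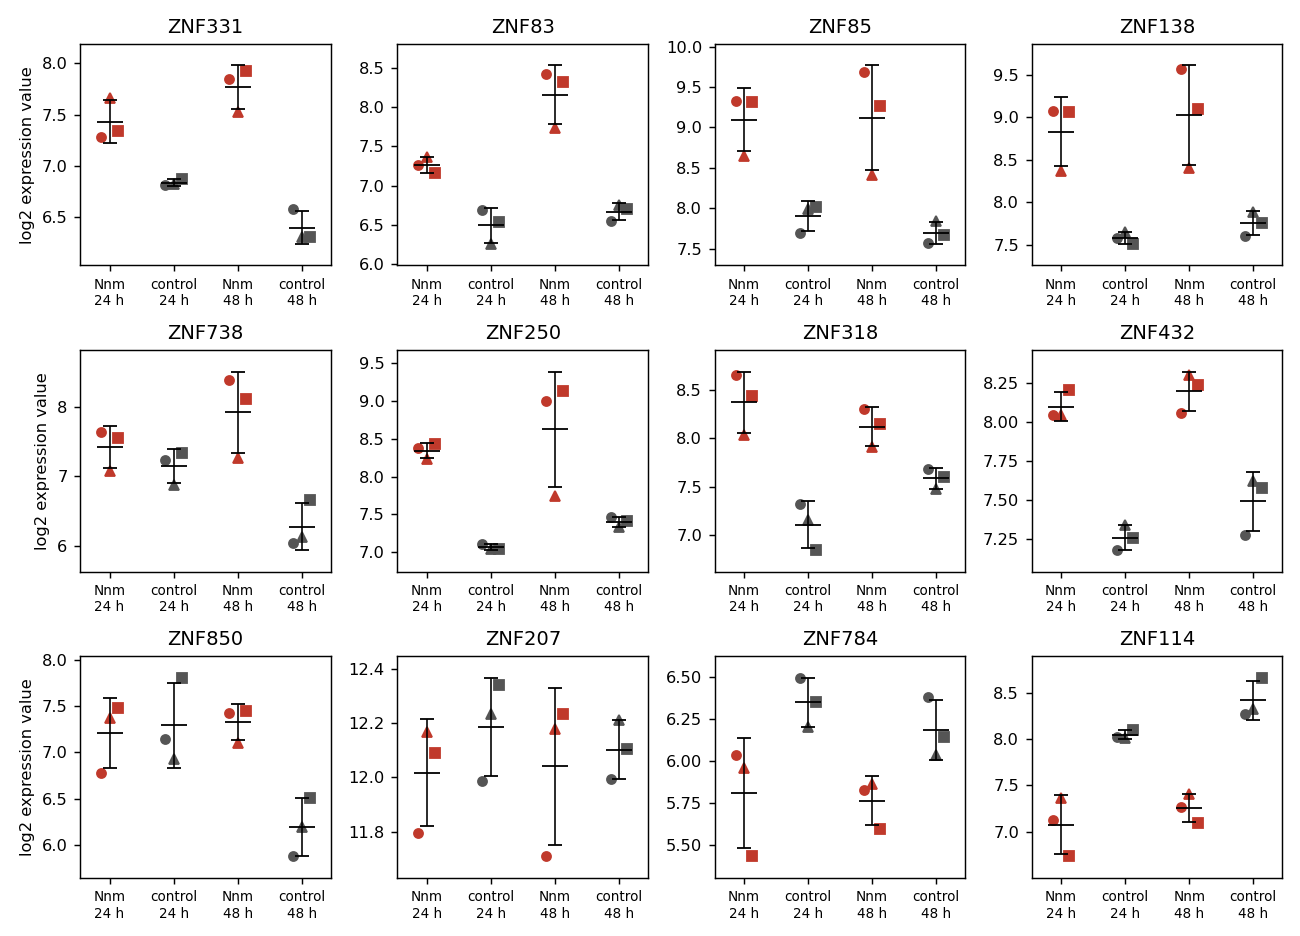
Log2 value of 12 ZNF genes on each array, with Nnm in red to the left of its control in grey at 24 h and at 48 h. Circles, triangles and squares are replicates 1, 2 and 3, and the bars show the mean ± SD of the 3 arrays. In ZNF85, ZNF138 and ZNF250 the triangle is the lowest Nnm value, while ZNF432 rose and ZNF114 fell at both times without overlap and the groups of ZNF207 overlap.

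The shift was also seen without a test, array against array. Nnm minus control of the same replicate number was above 0 for 168, 191 and 177 of the 242 genes in replicates 1, 2 and 3 at 24 h, with medians of 0.19, 0.21 and 0.32. At 48 h it was above 0 for 184, 204 and 183 genes, with medians of 0.37, 0.27 and 0.32. Over all genes tested, 50.4% to 52.5% of such differences were above 0 at 24 h and 48.8% to 53.5% at 48 h. The replicate 2 arrays, in which changes were small over all genes, had the largest share of rising ZNF genes at both times, 78.9% and 84.3%. The 3 Nnm values lay above the 3 control values without overlap for 105 ZNF genes at 24 h, 43.4% against 21.1% of all genes, and for 114 at 48 h, 47.1% against 20.3%. They lay below for 14 genes, 5.79% against 18.7%, at 24 h and for 8 genes, 3.31% against 15.8%, at 48 h.

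**Figure D3:**
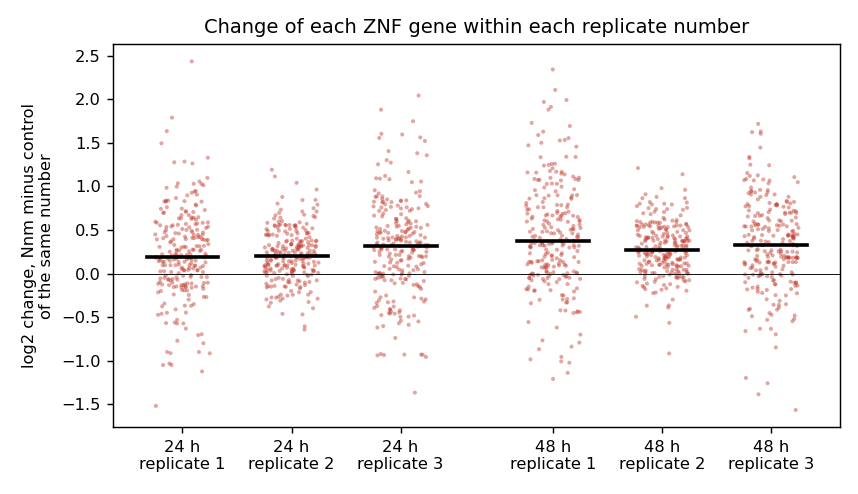
Log2 change of each of the 242 ZNF genes, Nnm minus the control of the same replicate number, for replicates 1, 2 and 3 at 24 h and at 48 h. Each point is a gene, spread sideways at random, and the black bar is the median. All 6 medians are above 0, from 0.19 to 0.37, and the points of replicate 2 are the least spread at both times.

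Both times together gave more calls than either. For the mean of the 24 h and 48 h changes, 111 ZNF genes rose and 11 fell, which is 45.9% and 4.55%, while 20.4% of all genes tested rose and 16.9% fell. These calls were less tied to single arrays, since 98 of the 122 genes passed without any one of the 12 arrays and the count ran from 103 to 130. With the replicate block 137 rose and 17 fell, against 28% and 24.6% of all genes, and without the Nnm arrays of replicate 2, 113 rose and 21 fell, against 25.4% and 21.3%. The smallest p-values among the risen genes were those of ZNF331, ZNF432, ZNF83, ZNF766 and ZNF266, and the mean change of ZNF331 was 0.98 with an adjusted p of 0.000433. ZNF432, a KRAB protein with a reported part in DNA repair in human cells, had values of 8.04, 8.05 and 8.21 in Nnm cells and 7.18, 7.34 and 7.25 in control cells at 24 h, and 8.06, 8.30 and 8.24 in Nnm cells and 7.27, 7.62 and 7.58 in control cells at 48 h. Its groups were apart at both times, with changes of 0.84 (adjusted p = 0.00531) and 0.71 (adjusted p = 0.00825).

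The 11 genes that fell over both times were ZNF114, ZNF784, ZNF587B, ZNF407, ZNF629, ZNF512, ZNF579, ZNF697, ZNF326, ZNF830 and ZNF23, the last 6 being named because the group is small. Among them ZNF326 belongs to a complex that couples transcript elongation to splicing. ZNF587B had values of 7.14, 8.19 and 7.49 in Nnm cells and 8.19, 8.50 and 8.42 in control cells at 24 h, and 7.39, 8.30 and 7.22 in Nnm cells and 8.52, 8.44 and 8.48 in control cells at 48 h. Replicate 2 was close to the controls while replicates 1 and 3 were far below them. The change of ZNF587B was -0.76 at 24 h with an adjusted p of 0.0883 and -0.85 at 48 h with an adjusted p of 0.0768, and with the replicate block the adjusted p-values were 0.0263 and 0.0214. Over both times its change was -0.80 (adjusted p = 0.0129), that of ZNF407 was -0.32 (0.0229) and that of ZNF629 was -0.52 (0.0244). The calls of ZNF407 and ZNF629 were each lost without 5 of the 12 arrays in turn. For ZNF407 these were Nnm replicate 1 and control replicate 1 of 24 h and Nnm replicate 1 and control replicates 2 and 3 of 48 h, with adjusted p-values up to 0.0568. For ZNF629 they were Nnm replicate 3 and control replicate 1 of 24 h and Nnm replicates 1 and 3 and control replicate 3 of 48 h, with values up to 0.0585.

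The changes at both times ran mostly the same way. They were above 0 at both times for 170 ZNF genes, below 0 at both for 35 and of opposite sign for 37. Of the genes that rose, 39 did so at both times, which is 70.9% of the 55 at 24 h and 52.7% of the 74 at 48 h. No ZNF gene passed the test of the difference between the 48 h and 24 h changes, nor did any of the 10907 genes (0% called), while 17 ZNF genes had an unadjusted p under 0.05, as did 698 of all genes (6.4%). The smallest p-values were those of ZNF331, with a difference of 0.77 ± 0.20 (SE, adjusted p = 0.696), and of ZNF415, with 0.59, among the larger changes at 48 h. Among the larger changes at 24 h they were those of ZNF318, with -0.73, and of ZNF428, with -0.56. ZNF331 passed that test with array weights, at an adjusted p of 0.0337, and without both Nnm arrays of replicate 2, at 0.0481, and in no other setting tried. In the controls, 48 h minus 24 h, no ZNF gene passed, while 0.128% of all genes did, 0.0825% upwards and 0.0458% downwards, and 29 ZNF genes had an unadjusted p under 0.05, as did 1711 of all genes (15.7%). With the replicate block 10 rose and 4 fell against 8.47% of all genes called.

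**Figure D4:**
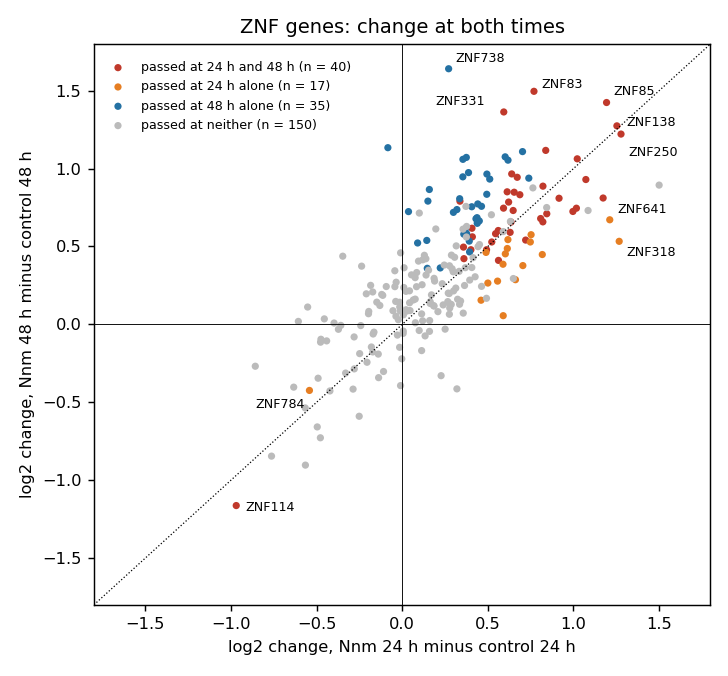
Log2 change at 24 h (x) against log2 change at 48 h (y), Nnm minus control, for each of the 242 ZNF genes, coloured by the times at which it passed the test. The dotted line marks equal change. Of the genes, 40 passed at both times, 17 at 24 h alone, 35 at 48 h alone and 150 at neither, and ZNF114 lies alone at the lower left among those that passed at both times.

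Risen genes made up a larger share of the ZNF genes on chromosome 19 than of those elsewhere. Of the 107 on that chromosome, 31 rose and 2 fell at 24 h and 51 rose and 1 fell at 48 h, with median log2 changes of 0.35 and 0.52. Of the 135 on other chromosomes, 24 rose at 24 h and 23 at 48 h and none fell, with medians of 0.18 and 0.23. The other 659 genes tested on chromosome 19 did not share the shift, with medians of -0.07 and -0.05, 27 that rose and 84 that fell at 24 h and 29 that rose and 45 that fell at 48 h. These counts describe the groups, and the difference between chromosomes was not tested.

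Within chromosome 19 most risen genes lay in dense clusters. When its 105 protein-coding ZNF genes were put in chromosome order and parted wherever more than 8 other protein-coding genes lay between neighbours, 18 runs resulted, and 7 runs of at least 7 members held 85 of the genes. In those 7 runs 28 genes rose at 24 h and 48 at 48 h and none fell, with median changes of 0.37 and 0.56. Of the 20 genes outside them, 3 rose and 2 fell at 24 h and 2 rose and 1 fell at 48 h, with medians of 0.07 and 0.15. The run from ZNF506 to ZNF43, which holds ZNF93, ZNF85, ZNF738 and ZNF493, had the highest medians of the 7 long runs, 0.58 and 0.90, and 6 and 8 of its 10 genes rose. The run from ZNF627 to ZNF791 followed with 0.51 and 0.73, and 4 and 7 of its 8 genes rose. In the run from ZNF614 to ZNF331, 4 of 15 rose at 24 h, with a median of 0.39, and 11 at 48 h, with a median of 0.76.

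The other stretches varied. The run from ZNF667 to ZNF584 near the end of the long arm, the largest with 25 genes, had medians of 0.36 and 0.43 and 8 and 9 risen genes, and it also holds ZNF587B. The run of 4 genes from ZNF579 to ZNF580, which includes ZNF784, had medians of -0.33 and -0.22, and ZNF787 with ZNF444 had -0.28 and -0.20. Other short runs had medians above 0, as in ZNF302 with ZNF30 (0.64 and 0.53), of which 2 rose at 24 h and 1 at 48 h, and in the 3 genes from ZNF91 to ZNF254 (0.36 and 0.58), of which none rose at 24 h and 1 at 48 h. ZNF114 stood alone, in a run with no other ZNF gene of the set.

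**Figure D5:**
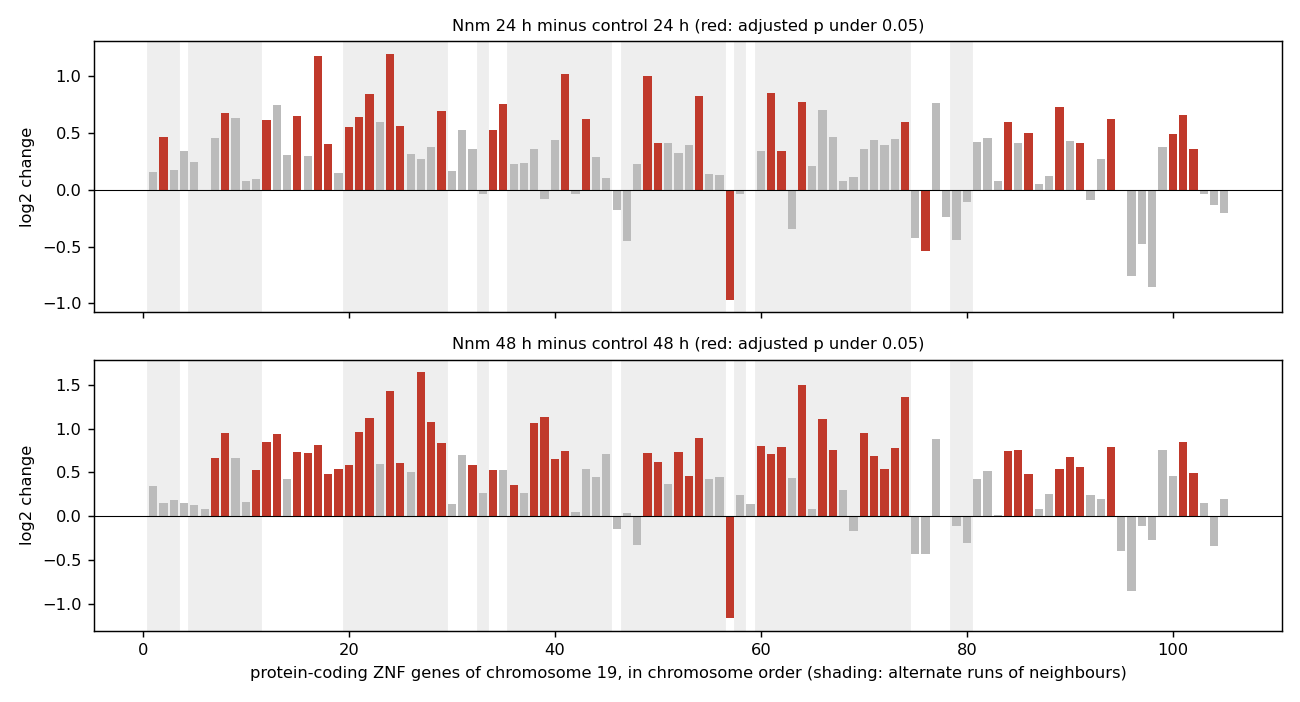
Log2 change, Nnm minus control, at 24 h (top) and 48 h (bottom) for the 105 protein-coding ZNF genes of chromosome 19 in chromosome order, with alternate runs of neighbours shaded and genes with an adjusted p under 0.05 in red. Red bars above 0 recur through the 7 long runs, with 28 genes at 24 h and 48 at 48 h, and ZNF114 is the only red bar below 0 in the lower panel.

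The promoters of the ZNF genes were rich in a few short motifs compared with all 27305 promoters in the table. The ZNF genes were selected on their level and the 27305 were not, and the part of this in the shares was not tested. CCGGAAG was present in 41.7% of the 206 ZNF promoters and in 10.7% of all, CCAAT in 48.5% and 35.7%, GGGCGG in 63.1% and 44.6%, the NRF1 site in 15% and 6.28%, and the ZNF143 site in 11.2% and 0.886%. TATAAA, the TATA box, was rarer, in 3.4% against 12% of all. The other motifs searched were CACGTG, the E-box (7.28% and 7.43%), TGACGTCA, the CRE (4.85% and 1.98%), TGACTCA (3.4% and 4.92%), ATGGCGGC, the core of the YY1 site (5.34% and 3.21%), and TTTCGCGC, a site of E2F (0.485% and 0.546%). The median GC content was 61.8% in ZNF promoters and 58.3% in all promoters.

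The shares were also set side by side for ZNF genes that rose at either time and the rest. CCGGAAG was in 44.2% of the 77 risen genes with a promoter and in 40.3% of the 129 others, and CCAAT in 49.4% and 48.1%. The ZNF143 site, seen in capitals in the promoters of ZNF331 and ZNF420, was in 14 of the 77 risen genes (18.2%) and in 9 of the 129 others (6.98%). CACGTG ran the other way, in 1 of 77 (1.3%) and in 14 of 129 (10.9%). The NRF1 site was in 10.4% of risen genes and 17.8% of others, and TGACGTCA in 2.6% and 6.2%. No test was made of these shares. ZNF143, whose own site this is and which activates many promoters, had log2 changes of -0.05 at 24 h and 0.09 at 48 h.

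The layout shown in the first 5 promoters, 2 CCAAT boxes and then CTTCCGG on the strand of the gene, was picked after the values had been seen. It was drawn from reading the promoters of risen ZNF genes, so the changes of genes that hold it are a description and no test. It occurred in 55 of all 27305 promoters (0.201%), in 28 of the 508 ZNF promoters (5.51%) and in 15 of the 206 studied here (7.28%). The 15 genes were ZNF43, ZNF85, ZNF419, ZNF430, ZNF431, ZNF493 and ZNF675 on chromosome 19, ZNF92, ZNF107, ZNF138, ZNF680 and ZNF736 on chromosome 7, and ZNF195, ZNF267 and ZNF670 elsewhere. In 12 of them the CCAAT boxes started 29 bases apart. Their likeness to ZNF85 varied. The promoter of ZNF85 was identical at 82.4% of positions of a global alignment, gaps counted, to that of ZNF92, at 80.4% to ZNF493, at 80.2% to ZNF43 and at 77.6% to ZNF138 on chromosome 7. It was identical at 67.7% to ZNF675, 63.2% to ZNF195, 61.3% to ZNF736, 56.5% to ZNF267, 50.7% to ZNF419 and 48.1% to ZNF670. Of the genes compared that lack the layout, ZNF93 had 78.5%, ZNF587B 52.0%, ZNF331 49.7%, ZNF784 49.2% and ZNF83 49.1%. So ZNF93, without the layout, was more like ZNF85 than several genes that hold it. Of the 15, 5 rose at 24 h and 9 at 48 h and none fell, with median log2 changes of 0.39 and 0.83. Of the 191 others with a promoter, 42 rose and 1 fell at 24 h and 55 rose and none fell at 48 h, with medians of 0.25 and 0.29. ZNF195 and ZNF419 hold the layout and had changes of -0.11 and 0.19 and of 0.05 and 0.09.

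Probes can cross between such relatives, which bears on how far single genes can be told apart. Of the 242 probe sets used, 168 were of the plain type, 42 were of the type marked _s_ and 30 of the type marked _x_, which may read related transcripts. ZNF85, ZNF138, ZNF43, ZNF44, ZNF93, ZNF107, ZNF430, ZNF587B and ZNF600 were read by _x_ probe sets, so that their values may include paralogs. With _x_ probe sets 7 of 30 genes rose at 24 h and 16 at 48 h, with medians of 0.39 and 0.56. With plain probe sets 36 of 168 rose and 2 fell at 24 h and 45 rose and 1 fell at 48 h, with medians of 0.27 and 0.29. The plain probe set of ZNF85, the dimmer of its pair, had changes of 0.44 and 0.74. Of the 117 genes with more than 1 probe set above background, 84 had changes of 1 sign in all of them at 24 h and 90 at 48 h.

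The shift was largest in the middle of the range of levels. Split by level, the 81 dimmest ZNF genes had median log2 changes of 0.17 at 24 h and 0.24 at 48 h, the 81 in the middle 0.36 and 0.48, and the 80 brightest 0.25 and 0.29. The shares that rose at 24 h and 48 h were 13.6% and 13.6% in the dimmest, 30.9% and 45.7% in the middle and 23.8% and 32.5% in the brightest. Of the 108 ZNF genes below the mean level of 6 that were still tested, 13 rose and 1 fell at 24 h, against 10.6% and 8.85% of all genes. At 48 h 18 rose and none fell, against 8.45% and 5.34% of all genes. Those genes passed the filter on dim probe sets through the arrays on which they were brighter, so their counts are only a description. Of the long noncoding genes in the set, 2 of 3 rose at 24 h and none at 48 h.

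A few ZNF genes with known roles are given here although the naming rule did not pick them, and they were chosen after their values had been seen. ZNF354A, whose rat ortholog Kid-1 was described as a kidney gene that falls after injury, had values of 7.95, 7.35 and 7.98 in Nnm cells and 6.92, 7.07 and 6.86 in control cells at 24 h, and 8.04, 7.59 and 7.75 in Nnm cells and 7.28, 7.27 and 6.79 in control cells at 48 h. No values overlapped, and the changes were 0.81 (adjusted p = 0.0212) and 0.68 (adjusted p = 0.0453), the first lost without Nnm replicate 1 or 3 or control replicate 1 or 3 of 24 h (up to 0.0834) and the second without 9 of the 12 arrays (up to 0.163). ZNF274, which recruits SETDB1 to the 3′ ends of other ZNF genes, had values of 10.01, 9.86 and 9.98 in Nnm cells and 9.64, 9.53 and 9.61 in control cells at 24 h. Its groups were apart, with changes of 0.36 (adjusted p = 0.0391) at 24 h and 0.50 (adjusted p = 0.016) at 48 h, lost without 8 of the arrays (up to 0.119) and without Nnm replicate 1 or 3 or control replicate 1 or 3 of 48 h (up to 0.0601). For the mean of both times ZNF354A and ZNF274 passed without any one array. ZNF91, which silences SVA elements, had changes of 0.16 and 0.15 and did not pass. ZNF703, a corepressor of the NET family, had the highest change of the 242 at 24 h, 1.50, with an adjusted p of 0.0742, or 0.0193 with the replicate block.

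Genes for the proteins through which KRAB zinc fingers act were counted beside the shares of all genes given above, 10.6% that rose and 8.85% that fell at 24 h and 8.45% and 5.34% at 48 h. With the replicate block these shares were 20% and 18.8% at 24 h and 18.5% and 13.7% at 48 h. Without the Nnm arrays of replicate 2 they were 18.1% and 15.9% at 24 h and 16.4% and 12.5% at 48 h. Of 22 tested genes of the KRAB repression complex and HP1, none rose and 3 fell at 24 h, and 1 rose and 1 fell at 48 h, with median log2 changes of -0.18 and -0.02. With the replicate block none rose and 5 fell at 24 h and 3 rose and 1 fell at 48 h, and without the Nnm arrays of replicate 2 none rose and 7 fell at 24 h and 2 rose and 2 fell at 48 h. TRIM28, the KRAB corepressor itself, had changes of -0.04 at 24 h and 0.29 at 48 h, the adjusted p at 48 h being 0.527, or 0.0287 in the blocked fit. SETDB1 had changes of 0.06 and 0.26 and did not pass. GATAD2A, a subunit of NuRD, had values of 9.36, 9.04 and 9.37 in Nnm cells and 10.25, 9.75 and 10.26 in control cells at 24 h, a change of -0.83 (adjusted p = 0.0126), and a change of -0.62 (0.0402) at 48 h. UHRF1, which reads hemimethylated DNA, fell by 0.63 and RBBP4, a histone-binding subunit, fell by 0.47 at 24 h, and SUV39H1, which methylates histone H3, rose by 0.38 at 48 h. Except for GATAD2A at 24 h, which missed the threshold only without control replicate 3 (0.0609), these calls were lost without several arrays, at adjusted p-values up to 0.117 for UHRF1, 0.161 for RBBP4, 0.153 for SUV39H1 and 0.126 for GATAD2A at 48 h. The HUSH complex silences transposons together with SETDB1. Of 5 genes of this complex and its partners, PPHLN1 fell at 24 h by 0.80 (limma adjusted p = 0.0259), and none passed at 48 h. The call of PPHLN1 was lost without any of the 24 h arrays except Nnm replicate 2 (up to 0.0949). Without the Nnm arrays of replicate 2, 2 of these 5 fell at each time, and with the block 1 fell at 24 h and none at 48 h.

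Zinc finger genes under other names were listed by symbol, so that an antisense RNA, ZSCAN16-AS1, and ZBTB8OS, a neighbour of a ZBTB gene, are among them. Their counts stand beside 10.6% of all genes that rose and 8.85% that fell at 24 h, and 8.45% and 5.34% at 48 h. With the block these shares were 20% and 18.8% at 24 h and 18.5% and 13.7% at 48 h. Without the Nnm arrays of replicate 2 they were 18.1% and 15.9% at 24 h and 16.4% and 12.5% at 48 h. Of 19 genes with ZSCAN and ZKSCAN symbols, most of which encode a SCAN domain for pairing, 3 rose at each time and none fell, with median log2 changes of 0.09 and 0.27. With the replicate block 5 rose and 1 fell at 24 h and 6 rose at 48 h, and without the Nnm arrays of replicate 2, 7 rose at 24 h and 4 at 48 h. ZSCAN31 had values of 11.29, 10.76 and 11.29 in Nnm cells and 8.55, 9.11 and 8.72 in control cells at 24 h, and the largest rise of any gene in these lists, 2.32 ± 0.31 (SE, adjusted p = 0.00496), with 1.86 (0.00813) at 48 h. ZSCAN26 rose by 1.26 and 0.89 and ZSCAN29 by 0.44 and 0.65. Of 37 genes with ZBTB symbols 5 rose and 1 fell at 24 h and 2 rose at 48 h, with medians of 0.14 and 0.08. With the replicate block 8 rose and 3 fell at 24 h and 5 rose at 48 h, and without the Nnm arrays of replicate 2, 9 rose and 2 fell at 24 h and 5 rose and 1 fell at 48 h. The one that fell in the fit without the block was ZBTB2, with 6.02, 6.82 and 6.04 in Nnm cells and 7.72, 7.46 and 8.02 in control cells at 24 h, a change of -1.44 (adjusted p = 0.00657). ZBTB44 rose by 0.76 at 24 h, ZBTB34 by 0.58 and 0.65 and ZBTB41 by 0.93 and 0.91.

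Of 15 ZFP genes, 5 rose at 24 h and 2 at 48 h, with medians of 0.28 and 0.19, beside 10.6% and 8.45% of all genes that rose. The shares of all genes given for the ZSCAN and ZBTB lists, in each fit, apply to all lists of this paragraph. The block gave 7 and 4 that rose, and leaving out the Nnm arrays of replicate 2 gave 6 and 3. ZFP90 had values of 10.36, 10.21 and 10.18 in Nnm cells and 9.31, 9.37 and 9.15 in control cells at 48 h, a change of 0.97 (adjusted p = 0.00176), after 0.67 (0.00657) at 24 h. ZFP37 rose by 1.01 and ZFP36L2, which binds AU-rich messenger RNAs, by 1.16 at 24 h, and ZFP1 by 0.55 at 48 h. Of 15 KLF and SP factors, 1 rose and 2 fell at 24 h and 2 rose and 1 fell at 48 h. The block gave 5 that rose and 2 that fell at 24 h and 7 and 1 at 48 h, and leaving out the Nnm arrays of replicate 2 gave 3 and 1 at 24 h and 5 and 1 at 48 h. SP4 rose by 1.22 and 1.05, KLF11 rose by 0.57 at 48 h, KLF5 fell by 0.70 and 0.59, and KLF10 fell by 0.53 at 24 h. At 48 h KLF10 had a change of the other sign, 0.25, with a limma adjusted p of 0.318, or 0.0434 with the block. Of 10 tested genes in a list of GLI, SNAI, EGR and other factors, 2 rose at each time, against 5 and 4 with the block and 4 and 5 without the Nnm arrays of replicate 2. They were REST, the repressor of neuronal genes (0.47 and 0.42), with GLI3 at 24 h (1.18), and CTCF, which organises chromatin loops, at 48 h (0.42, adjusted p = 0.0159). Of the calls named here from these lists of other zinc finger genes, those that were kept without any one of the 12 arrays were ZSCAN31, ZFP90 and the 24 h calls of ZSCAN26, ZBTB2, ZFP37 and SP4, and the others were lost without 1 or more arrays, at adjusted p-values up to 0.163 for KLF10. The 24 h call of ZBTB34 (adjusted p = 0.0259) was not recomputed with arrays left out.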

How the data were processed

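RNA of HK-2 cells in 4 groups was hybridised to Affymetrix arrays with 54675 probe sets. The authors deposited log2 expression values made with GCRMA, per the submitters' processing notes, which correct background and normalize between arrays. Its version was not found in those notes, and the log base was read from the range of the values. Depth does not apply, and precision is limited by 3 arrays per group.

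Probe sets with 1 gene symbol in the platform annotation (41091) were used, 1801 with several and 11721 unlisted ones were not, and 41037 matched RefSeq. The brightest probe set above 4 on at least 3 arrays stood for a gene, giving 10907 genes. All 12 arrays were fitted with limma 3.58.1 (lmFit and eBayes, R 4.3.3) with Benjamini-Hochberg adjustment over these genes and a threshold of 0.05, and the fit was tested on simulated data. Errors of changes are standard errors of the fit. No filter, a stricter filter, probe set means, other scalings, weights, a replicate block and left-out arrays were tried.

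Same-numbered arrays deviated together (correlations of 0.32 to 0.70, and -0.59 to 0.12 where the numbers differed), so by this check the numbers pair the arrays. The main model has no block, and the blocked fit is an alternative, given beside the counts. Named genes were the 10 largest rises and falls that passed at each time, the 5 smallest p-values in each direction over both times and the 2 in each direction for the difference, the 6 brightest and those beside the level of 6, and 3 per other list. A part of the rule on finger counts could not be applied without a protein table. The ZNF genes and the lists were chosen with earlier results of these data known. Python 3.11.15 with matplotlib 3.10.9 drew the figures.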

Additional observations from a re-analysis of the deposited data

How the results depend on the processing

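The count of ZNF genes called at 24 h, 57, was 107 with the replicate block over all arrays, 92 with the block within each time, 121 with array weights and 25 with the 24 h arrays alone, and it ran from 11 to 72 with 1 array left out. The count at 48 h, 75, was 117 with the replicate block over all arrays, 49 with no filter on dim probe sets and 33 with the 48 h arrays alone, and it ran from 20 to 85 with 1 array left out. The other alternatives, namely the stricter filter, probe set means, quantile normalization, median centring, the trend and robust model and a level of 5 or 7 in place of 6, moved these counts by less than 1.5 times. At both times more ZNF genes rose than fell in each of these alternatives. The count over both times, 122, was 154 with the replicate block and ran from 103 to 130 with 1 array left out. The difference between times called 1 gene with array weights and 1 without both Nnm arrays of replicate 2, and the controls 14 with the replicate block. The median change at 24 h ran from 0.21 to 0.28 with 1 array left out. Among the named genes, signs reversed for these bright genes near 0 that did not pass: ZNF664 at 24 h, -0.03, was 0.016 with quantile normalization and -0.16 to 0.045 with 1 array left out. ZNF207 at 48 h, -0.06, was 0.14 with probe set means, 0.0029 with array weights and -0.16 to 0.10 with 1 array left out. ZNF770 at 48 h, 0.17, was -0.019 with array weights. The cause of these moves was not tested, and some settings also bring fewer samples or a larger number of genes. Signal over background limits the dimmest genes, which lie near the filter.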
